A study of Mus musculus with 6 samples.

Results

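The glycolysis and HIF gene set holds 32 mouse genes that were listed by name: the glucose and lactate transporters, the enzymes of glycolysis, the kinases that steer it, and the hypoxia-inducible factor (HIF) pathway with 5 of its targets outside glycolysis. Of the 32 genes, 29 had a probe set of their own on the array and 28 entered the comparison of 18193 genes. Gapdh was named alone only on array control probe sets and is given from a fit that kept them. Gpi1 and Eno1 were named by no probe set in the annotation table used here and were not analysed. Bnip3l was present only on 3 probe sets that also name its pseudogene, and is uncertain for that reason. Signals are log2 of the deposited array intensities. They describe RNA, not enzyme activity or metabolic flux.

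RNA came from mouse bone marrow cells sorted as Flt3-Lin-Sca1+cKit+, a gate that enriches blood stem and early progenitor cells, on a C57BL/6 background. All mice were homozygous for a Raptor allele with exon 6 floxed. The 3 arrays of the mutant group came from mice that also carried Mx-Cre, in which an interferon-responsive promoter drives Cre in many cell types and not in blood cells alone, and the 3 arrays of the wild type group from mice without it. Mice of both groups were given pIpC, which induces interferon. The dose was 15 µg/g in 3 injections spread over 5 days, and cells were taken 5 weeks later. The labels do not say whether an array holds 1 mouse or a pool, so the spread between arrays may be partly technical. Raptor is the scaffold subunit of mTORC1, and the comparison asks how its deletion altered RNA levels in these cells.

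Glycolysis splits glucose into pyruvate in a preparatory phase, which spends ATP, and a payoff phase, which yields it, and lactate dehydrogenase then turns pyruvate into lactate. HIF-1, a dimer of Hif1a and Arnt, binds hypoxia response elements and raises most of these enzymes when oxygen is low; prolyl hydroxylases and Vhl keep Hif1a protein low when oxygen is present. Blood stem cells are known for reliance on glycolysis in a poorly oxygenated marrow, and mTORC1 is known to promote Hif1a translation and the expression of glycolytic genes. Much of this control acts on protein, which an array does not see.

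The promoters of the set were searched for the core letters of the hypoxia response element, ACGTG and GCGTG, on both strands. RefSeq windows on GRCm38.p6, of 300 bases with 250 before and 50 after each start, were at hand for 30 of the 32 genes. The letters stood in 35 of 46 windows of these genes (76.1%) and in 43.8% of all 32851 windows. The median GC content was 62.2% in the gene set and 52.7% over all windows. Both motifs hold the letters CG, whose median count per window was 20 in the gene set and 7 over all windows. The shares are thus not matched on base composition. Some genes have several windows, and some of those of Aldoa, Eno1, Pfkm and Mxi1 partly overlap. The motif ACGTG overlaps the E-box CACGTG, which other factors bind, and CACGTG stood in 5 of the 46 windows (10.9%) against 7.15% of all windows. A match is a description of these letters, not a bound site. The 250 bases before the start are printed for 4 genes, 5′ to 3′ on the gene's strand with matches in capitals. Pfkp and Pfkl are shown because they were among the 3 genes of the set with an unadjusted p under 0.05, Ldha as a textbook HIF target, and Egln1 as a target whose brightest probe set was lower, and whose other probe set was higher, on every mutant array.
Pfkp: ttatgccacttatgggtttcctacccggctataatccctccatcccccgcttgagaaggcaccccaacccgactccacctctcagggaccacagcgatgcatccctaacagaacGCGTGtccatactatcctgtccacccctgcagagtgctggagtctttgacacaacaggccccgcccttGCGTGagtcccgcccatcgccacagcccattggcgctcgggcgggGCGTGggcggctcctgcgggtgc
Pfkl: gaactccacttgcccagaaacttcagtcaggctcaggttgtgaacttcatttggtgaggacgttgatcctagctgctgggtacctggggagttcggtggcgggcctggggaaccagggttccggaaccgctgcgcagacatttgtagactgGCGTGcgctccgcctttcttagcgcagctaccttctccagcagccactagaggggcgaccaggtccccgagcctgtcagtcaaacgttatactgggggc
Ldha: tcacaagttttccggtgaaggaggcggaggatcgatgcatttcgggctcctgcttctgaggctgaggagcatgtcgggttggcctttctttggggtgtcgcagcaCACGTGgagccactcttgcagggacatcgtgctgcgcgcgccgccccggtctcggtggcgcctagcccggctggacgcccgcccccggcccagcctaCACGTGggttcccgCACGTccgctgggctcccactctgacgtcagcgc
Egln1: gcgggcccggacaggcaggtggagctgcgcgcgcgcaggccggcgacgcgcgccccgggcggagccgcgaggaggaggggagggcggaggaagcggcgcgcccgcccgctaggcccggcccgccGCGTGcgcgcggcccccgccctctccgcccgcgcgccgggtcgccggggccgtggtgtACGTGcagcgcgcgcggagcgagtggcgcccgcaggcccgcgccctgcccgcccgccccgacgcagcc
The Pfkp window lies at chr13:6648772-6649021 on the minus strand and holds GCGTG at positions -136, -68 and -23, counted from the base before the start as -1. Pfkl, at chr10:78009808-78010057 on the minus strand, holds GCGTG at -99. The first of the Ldha starts, at chr7:46845554-46845803 on the plus strand, holds ACGTG at -145, -144, -48, -47 and -34, and the pairs at neighbouring positions are E-boxes read on both strands. Egln1, at chr8:124949255-124949504 on the minus strand, holds GCGTG at -126 and ACGTG at -68.

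The background of the comparison is as follows. Array medians lay between 6.85 and 6.94 log2. Signals of different wild type arrays correlated at 0.957 to 0.967 across probe sets and those of mutant arrays at 0.985 to 0.988, and the wild type SD exceeded the mutant SD in 75.8% of all genes and in 18 of the 28 genes of the set. The Y-linked genes Eif2s3y and Kdm5d averaged 10.68 and 10.01 on wild type arrays 2 and 3, against 3.79 on wild type array 1 and 3.82 to 4.21 on the mutant arrays, so the wild type group mixed arrays that differ in Y-linked signal and the mutant group did not. Rptor, the gene deleted, had a log2 fold change of 0.22 ± 0.29 (SE; adjusted p = 0.771). The position of its probes with respect to exon 6 was not analysed, so this value does not check the labels. Flt3, which the gate excludes, was at 9.51 to 10.79 on the 6 arrays.

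No gene of the set changed past the threshold, an adjusted p under 0.05 over all 18193 genes in limma, which 20 genes met (0.11%). The lowest adjusted p in the set was 0.294, for Pfkp. At an unadjusted p under 0.05 there were 3 of 28 (10.7%), Pfkp, Pfkl and Hk1, against 10.0% of all genes, a share near the background. All 3 were higher in the mutant, against 5.81% of all genes with that p and direction. In 8 of 28 genes (28.6%) the mutant and wild type arrays did not overlap, against 16.1% of all genes. Of these, 6 were higher on all mutant arrays (21.4%, against 8.08% of all genes) and 2 were lower (7.14%, against 7.98%). The log2 fold change was above 0 in 20 of the 28, with a median of 0.126, whereas the median over all genes was -0.071 with 40.4% above 0. Most of the set is brightly measured, and among the brighter 50% of all genes the median was 0.06, with 58.5% above 0 and 13.4% non-overlapping and higher. The 25 genes of the set in that brighter range had a median of 0.132, with 76.0% above 0 and 24.0% non-overlapping and higher. The 95% interval lay within a 2-fold change either way in 23 of 28 genes, and within a 1.5-fold change in 8 of 28.

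**Figure D1:**
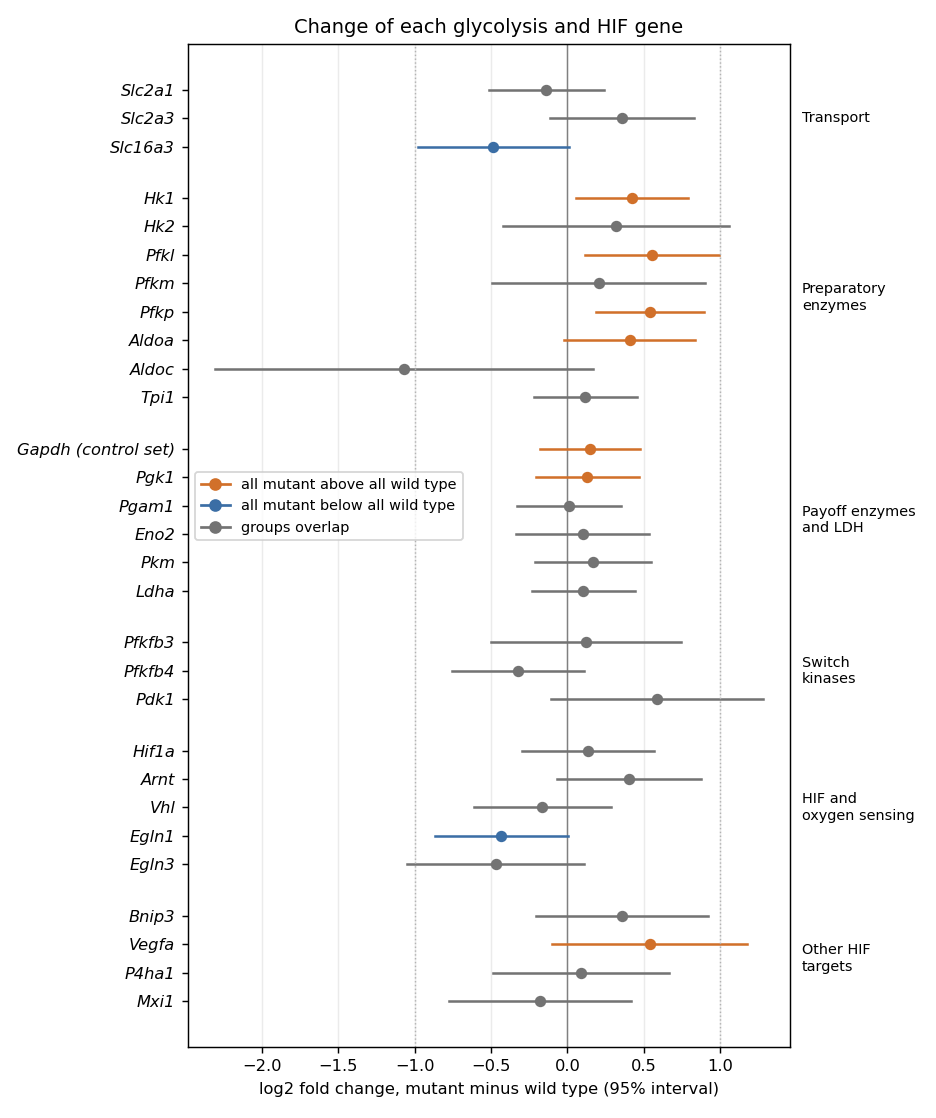
Log2 fold change, mutant minus wild type, of each gene with its 95% interval from limma (3 arrays per group), grouped by role and coloured by whether all mutant arrays lay above or below all wild type arrays. Intervals of Hk1, Pfkl and Pfkp lie above 0, all others cross 0, and the dotted lines mark a 2-fold change.

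The preparatory enzymes held the 3 genes with the smallest p. Pfkp, the platelet-type subunit of phosphofructokinase, which catalyses the committed step, was at 10.07, 10.00 and 10.02 on the wild type arrays and at 10.73, 10.47 and 10.51 on the mutant arrays. All mutant arrays lay above all wild type arrays, by 0.54 ± 0.15 log2 (SE), a 1.45-fold difference (adjusted p = 0.294, limma). Its other 2 probe sets were also positive, at 0.78 and 0.36.

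Pfkl, the liver-type subunit of the same enzyme, was at 10.64, 10.94 and 10.88 in wild type and at 11.10, 11.39 and 11.63 in mutant cells. The groups did not overlap, although mutant array 1 was only slightly above wild type array 2, and the difference was 0.55 ± 0.19 (adjusted p = 0.404). Of its 3 probe sets the dimmest, with a mean of 7.01, went the other way at -0.19. Pfkm, the muscle-type subunit, differed by 0.20 ± 0.30 with overlapping groups, wild type array 2 (9.96) being the highest of all.

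Hk1, the hexokinase of most cells, which traps glucose as glucose 6-phosphate, was at 10.34, 10.47 and 10.39 in wild type and at 10.96, 10.64 and 10.87 in mutant cells. The difference was 0.42 ± 0.16 (adjusted p = 0.447) without overlap, but its other probe set gave 0.07 with overlap. Hk2, the inducible hexokinase and a HIF target, was at 10.04, 8.67 and 9.49 in wild type cells and within 9.64 to 9.79 in mutant cells. The wild type arrays spread on both sides of the mutant ones, and the difference of 0.32 ± 0.32 became -0.05 without wild type array 2.

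Aldoa, the ubiquitous aldolase, was at 12.22, 11.74 and 12.25 in wild type and at 12.42, 12.55 and 12.47 in mutant cells. The groups did not overlap, wild type array 2 stood apart as the lowest, and the difference was 0.41 ± 0.18 (adjusted p = 0.519), or 0.245 without that array. Its 4 bright probe sets all gave non-overlapping positive differences of 0.23 to 0.41, and the dim one gave -0.05. Aldoc, the brain aldolase, was the only one of the 13 glycolytic enzymes below 0, at -1.07 ± 0.53 (-0.56 without mutant array 2), and had a mutant SD of 1.06, with mutant arrays between 6.09 and 8.20. Tpi1, triosephosphate isomerase, differed by 0.12 ± 0.15 with overlap.

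The payoff enzymes all had small positive differences. Pgk1, the first ATP-yielding step, was at 12.44, 12.47 and 12.44 in wild type and at 12.58, 12.68 and 12.48 in mutant cells. The groups did not overlap, yet mutant array 3 lay barely above wild type array 2, and the difference of 0.13 ± 0.15 had an adjusted p of 0.743. The other 2 probe sets of Pgk1 gave 0.00 and -0.05. Ldha, the main lactate dehydrogenase subunit of glycolytic tissues, was at 12.75, 12.77 and 12.63 in wild type and at 12.75, 12.90 and 12.82 in mutant cells. These values overlapped, and the interval of the difference (0.10) ran from -0.23 to 0.44. Pkm (0.17 ± 0.16), the pyruvate kinase gene, Eno2 (0.10 ± 0.19), the neuronal enolase, and Pgam1 (0.01 ± 0.15), phosphoglycerate mutase, overlapped as well.

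Gapdh, which oxidises glyceraldehyde 3-phosphate and is used as an array control, had control probe sets for the 3′ end, the middle and the 5′ end of its transcript. The 3 other probe sets that name it, each with further genes, gave differences of 0.18, -0.06 and -0.15. Of the control sets, values by array are as follows. The 3′ set was at 13.78, 13.75 and 13.68 in wild type and at 13.88, 13.93 and 13.85 in mutant cells. All mutant arrays were higher, by 0.15 ± 0.14 (adjusted p = 0.708 in the fit with control probe sets kept). The 5′ set was at 11.79, 12.15 and 12.16 in wild type and at 12.36, 12.60 and 12.52 in mutant cells, a difference of 0.46, and the middle set differed by 0.29. The difference between groups was thus larger the farther the probes lay from the 3′ end. The 3′ signal minus the 5′ signal, a measure of RNA integrity and amplification, was 1.71 ± 0.25 in wild type and 1.39 ± 0.11 in mutant cells (SD, n = 3 each). By array it was 1.99, 1.60 and 1.53 in wild type and 1.52, 1.34 and 1.33 in mutant cells. Its difference of -0.31 had a two-sided exact permutation p of 0.1, the smallest that 3 against 3 arrays allow. The same measure differed by -0.01 for Actb and by -0.03 for Tfrc. The part of this measure in the differences of other enzymes was not tested.

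**Figure D2:**
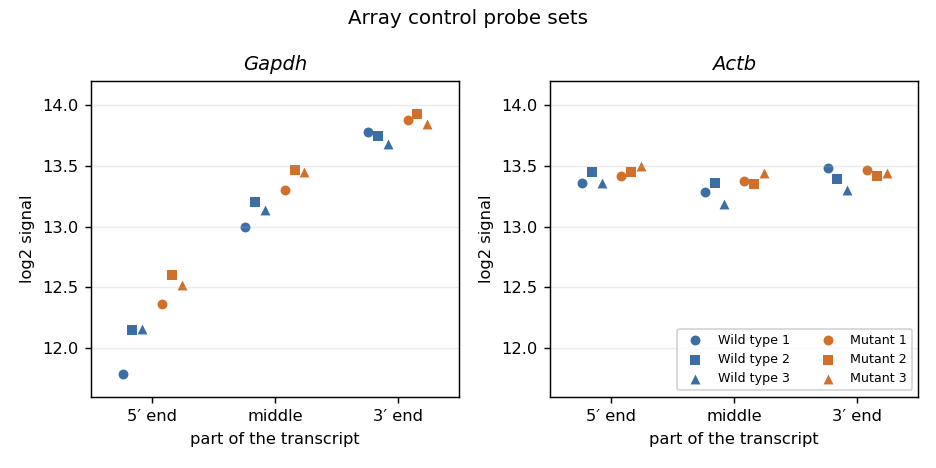
Log2 signal of the array control probe sets of Gapdh (left) and Actb (right) for the 5′ end, middle and 3′ end of each transcript, 1 point per array. For Gapdh all mutant points lie above all wild type points at each position and the gap widens to 0.46 at the 5′ end, while for Actb the groups overlap.

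Taken as a group, 12 of the 13 glycolytic enzymes in the comparison had a log2 fold change above 0, with a median of 0.169, and 5 of 13 were non-overlapping and higher (38.5%). Over all genes 40.4% were above 0 and 8.08% were non-overlapping and higher, and among the brighter 50% of genes these shares were 58.5% and 13.4%. None of the 13 passed the threshold. On wild type arrays 1, 2 and 3 the median deviation of the 13 enzymes from their own means over the 6 arrays was -0.151, -0.10 and -0.072, and on mutant arrays 1, 2 and 3 it was 0.051, 0.127 and 0.17. The 6 arrays thus separated by group in this summary, with mutant array 1 closest to the wild type ones. The 8 preparatory enzymes had a median of 0.363 and the 5 payoff enzymes a median of 0.105. Over the alternative analyses, 10 to 12 of the enzymes stayed above 0; Pgam1 turned to -0.002 with quantile and to -0.025 with cyclic loess normalization applied again. Since these are bulk samples, a change in the number of cells of a type and a change in RNA per cell cannot be told apart.

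**Figure D3:**
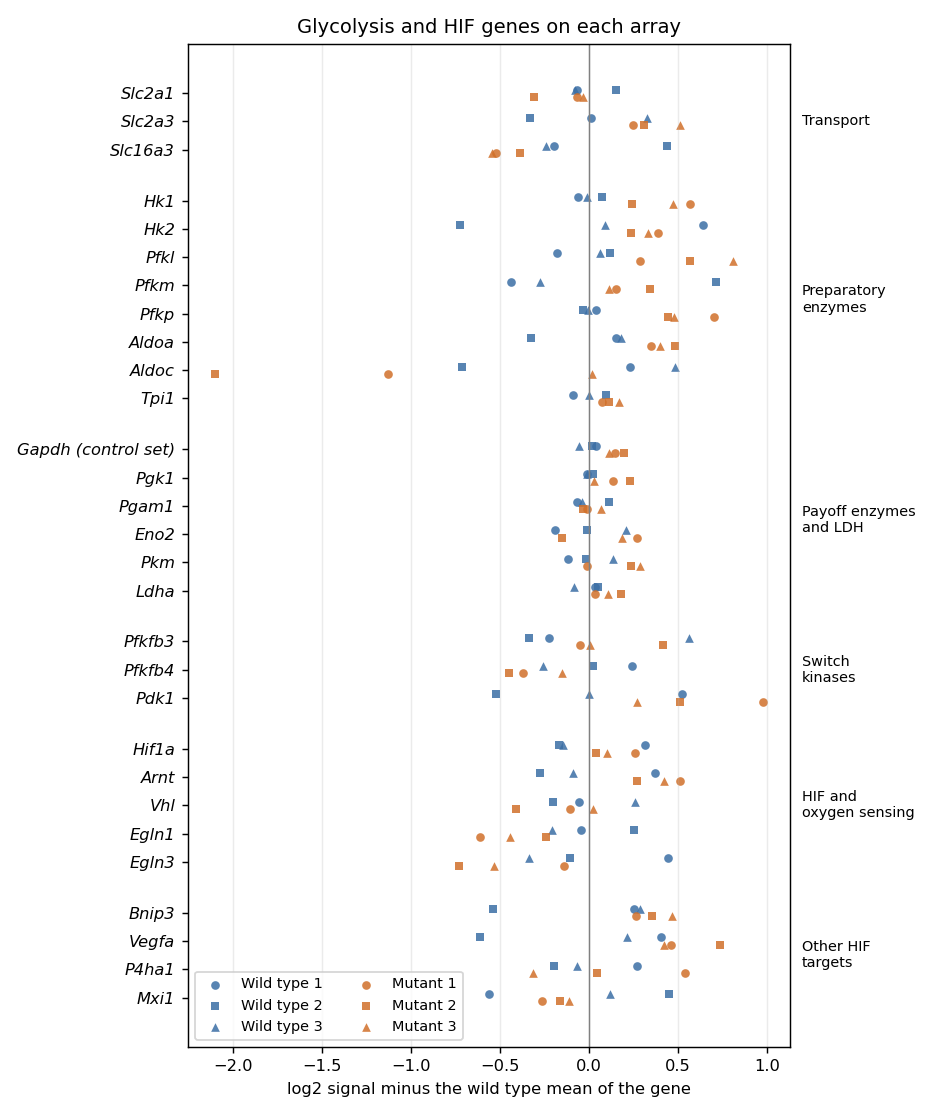
Log2 signal of each gene on each of the 6 arrays, drawn as the distance from the wild type mean of that gene. Mutant points lie right of all wild type points for Hk1, Pfkl, Pfkp, Aldoa, Pgk1, Vegfa and the Gapdh control set, and left of them for Slc16a3 and Egln1.

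The transporters did not share a direction. Slc2a1, which encodes the glucose transporter GLUT1, a classical HIF target, was at 11.05, 11.26 and 11.03 in wild type and at 11.05, 10.80 and 11.08 in mutant cells. The groups overlapped, and the difference was -0.14 ± 0.16 with an interval of -0.51 to 0.24. Its other 2 probe sets gave 0.05 and 0.10. Slc2a3 (GLUT3), a high-affinity glucose transporter, differed by 0.35 ± 0.20 with overlap, and by 0.19 without wild type array 2. Of its other 3 probe sets 2 were positive (0.38 and 0.66) and 1 was negative (-0.15).

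Slc16a3 encodes MCT4, a HIF-induced exporter of lactate. It was at 7.06, 7.69 and 7.01 in wild type and at 6.73, 6.87 and 6.71 in mutant cells. All mutant arrays were lower, with a difference of -0.48 ± 0.21 (adjusted p = 0.507), and the difference was -0.27 without wild type array 2, the highest. The related lactate transporter Slc16a1 (MCT1), which was not in the set, differed by 0.79.

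Among the kinases that set the pace of glycolysis, Pfkfb3 makes fructose 2,6-bisphosphate, the activator of phosphofructokinase, and its value depended on the probe set. The probe set chosen by the highest mean was at 8.67, 8.56 and 9.46 in wild type and at 8.85, 9.31 and 8.90 in mutant cells, with a difference of 0.12 ± 0.27. The other, with almost the same mean, was at 8.99, 8.16 and 8.35 in wild type and at 9.42, 9.27 and 9.56 in mutant cells. There all mutant arrays were higher, by 0.92 ± 0.24 (adjusted p = 0.322 with every probe set as its own feature), which was the largest positive difference of any probe set of the gene set. Pfkfb4, its relative, differed by -0.32 ± 0.19 (-0.20 without wild type array 1). Pdk1, the HIF-induced kinase that keeps pyruvate out of the mitochondria, differed by 0.59 ± 0.30 (adjusted p = 0.559), with overlap because wild type array 1 (10.51) lay inside the mutant range of 10.26 to 10.96. Without wild type array 2, the lowest, the difference of Pdk1 was 0.32. The other 3 probe sets of Pdk1 gave 0.35, 0.16 and -0.04, each with overlap.

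Of the HIF dimer, Hif1a was at 10.14, 9.66 and 9.68 in wild type and at 10.09, 9.86 and 9.93 in mutant cells. Wild type array 1 was the highest and wild type arrays 2 and 3 the lowest, and the difference was 0.13 ± 0.19 (adjusted p = 0.792). Its other 3 probe sets gave 0.35, -0.37 and -0.36, so the sign of Hif1a was not settled. Arnt, its constitutive partner, was positive on all 5 of its probe sets, with 0.40 ± 0.20 on the brightest (adjusted p = 0.558; a difference of 0.26 without wild type array 2) and overlapping groups.

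The 3 negative regulators of HIF in the set, Egln1, Egln3 and Vhl, were below 0 on their brightest probe sets, whereas Egln2 (0.26), Hif1an (0.40) and Hif3a (1.52) of the wider list were above 0. Egln1 encodes PHD2, the main oxygen-sensing prolyl hydroxylase and itself a HIF target. It was at 9.97, 10.27 and 9.81 in wild type and at 9.41, 9.78 and 9.58 in mutant cells. All mutant arrays were lower here, with a difference of -0.43 ± 0.19 (adjusted p = 0.499). Its second probe set, at 9.49, 9.62 and 9.57 in wild type and 9.69, 9.98 and 9.63 in mutant cells, went the other way without overlap, by 0.21 ± 0.16. Egln3 (PHD3), a strongly HIF-induced hydroxylase, differed by -0.47 ± 0.25 (-0.25 without wild type array 1) and by -0.75 on its second probe set, and Vhl, the ubiquitin ligase subunit that binds hydroxylated Hif1a, by -0.17 ± 0.19, all with overlap.

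The HIF targets outside glycolysis were mixed. Vegfa, the angiogenic growth factor, was at 7.88, 6.86 and 7.69 in wild type and at 7.94, 8.21 and 7.90 in mutant cells. The groups did not overlap, but wild type array 1 lay just below the lowest mutant array, and the difference was 0.54 ± 0.27 (adjusted p = 0.559). Without wild type array 2, the lowest, it was 0.23. The other Vegfa probe set, with a mean of 5.61, gave 0.06 with overlap. Bnip3, a mitophagy receptor, differed by 0.36 ± 0.24 (0.09 without wild type array 2), P4ha1, a collagen prolyl hydroxylase, by 0.09 ± 0.25, and Mxi1, a Myc antagonist, by -0.18 ± 0.26, each with overlap. The 3 shared probe sets of Bnip3l, the relative of Bnip3, gave -0.29, -0.06 and -0.19. The 9 HIF pathway genes and targets together had a median of 0.089, with 5 above 0.

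The 28 genes had 64 probe sets in all. Of the 19 genes with several, 11 had all of 1 sign and 8 had mixed signs. Of the 64 probe sets, 6 had an unadjusted p under 0.05 (9.38%), all of them higher in mutant cells, against 9.39% over the probe sets of all genes.

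**Figure D4:**
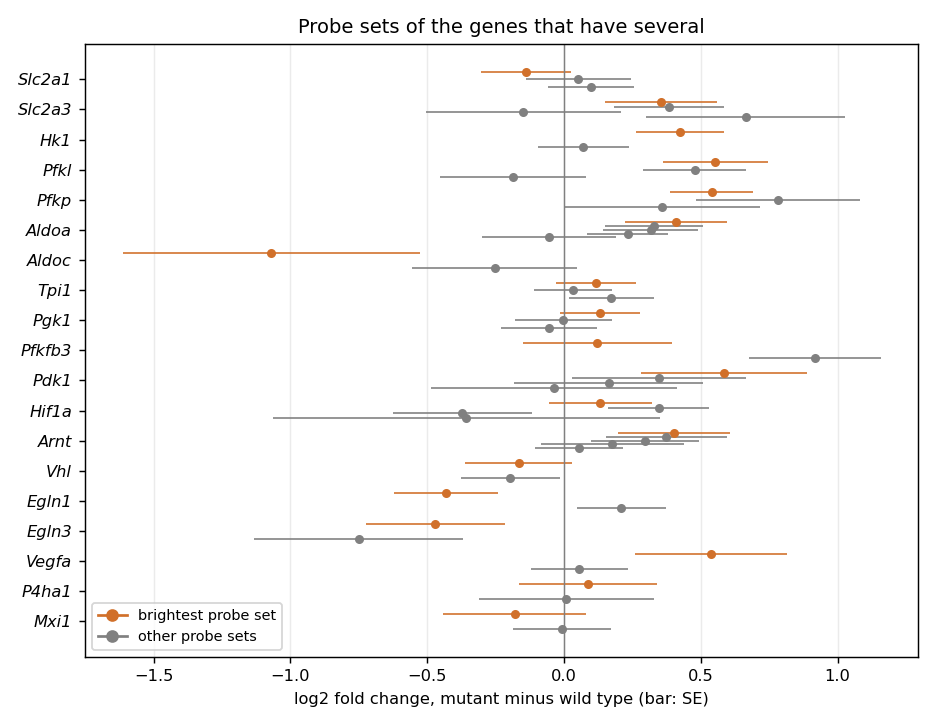
Log2 fold change with its SE for every probe set of the 19 genes that have several, the brightest in orange. The points of Arnt lie on 1 side of 0, whereas Pfkfb3 spans 0.12 to 0.92 and the probe sets of Egln1 and Hif1a lie on both sides.

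Since wild type arrays 2 and 3 differ from all others in Y-linked signal, the mutant mean was also set against wild type array 1 alone and against wild type arrays 2 and 3. Pfkp differed by 0.50 and 0.56, Pfkl by 0.73 and 0.46, Hk1 by 0.48 and 0.39, and Aldoa by 0.26 and 0.48, so these 4 were positive on both sides. Pdk1 differed by 0.06 and 0.85, Arnt by 0.03 and 0.58, Vegfa by 0.13 and 0.74, and Bnip3 by 0.11 and 0.49, so most of their difference lay against wild type arrays 2 and 3. Signs were opposite in 6 of the 28 genes, among them Hk2 (-0.32 and 0.64) and Hif1a (-0.18 and 0.29). Of the 6 arrays, wild type array 1 had the highest 3′ minus 5′ control signal for Gapdh (1.99), Actb (0.13) and Tfrc (-1.34). Its limma array weight, 0.431, was the lowest. The part of RNA quality in these differences was not tested. A limma fit against wild type array 1 alone must assume that this array varies like the mutant arrays. With 1 array in a group, it cannot show that a gene of the set is unchanged.

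The wider pathway was read from lists of 113 other genes, 104 of them in the comparison. Of these, 1 rose and 1 fell past the threshold, both among the 46 measured HIF targets of the wider list. Over all 18193 genes, 20 passed it (0.11%). At an unadjusted p under 0.05 in limma, 7 of the 104 were higher and 7 lower in the mutant, while 10.0% of all genes had such a p. Bhlhe40, a transcriptional repressor induced by hypoxia, was at 7.51, 7.05 and 6.62 in wild type and at 9.58, 9.55 and 9.66 in mutant cells. It rose by 2.54 ± 0.23 (adjusted p = 0.0134), far beyond the spread within either group. Tek, the angiopoietin receptor TIE2 and also a marker of stem cells, was at 10.23, 9.93 and 10.30 in wild type and at 8.57, 8.74 and 8.70 in mutant cells. It fell by 1.48 on the log2 scale (SE 0.17, adjusted p = 0.0299) and is 1 of the 9 measured stem cell markers. Both calls were lost in some alternative analyses, where the adjusted p reached 0.272 for Bhlhe40 and 0.311 for Tek, while the log2 fold changes stayed within 2.09 to 2.76 and -1.59 to -1.41.

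The other genes singled out by the smallest p in each list did not pass the threshold. Fbp1, the gluconeogenic fructose bisphosphatase that opposes phosphofructokinase, was at 8.36, 9.06 and 8.79 in wild type and at 5.92, 6.80 and 7.49 in mutant cells, a difference of -2.00 ± 0.38 (adjusted p = 0.147). Slc16a1 (MCT1), which carries lactate, was at 10.68, 10.40 and 10.44 in wild type and at 11.21, 11.17 and 11.50 in mutant cells, a difference of 0.79 ± 0.17 (adjusted p = 0.177). For both genes the groups stood clearly apart. Ddit4 (REDD1), a hypoxia-induced inhibitor of mTORC1, was at 11.10, 10.69 and 10.46 in wild type and at 9.58, 8.67 and 9.54 in mutant cells, a difference of -1.49 ± 0.29 (adjusted p = 0.155).

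Stc2, a secreted glycoprotein induced by stress, differed by 1.87 ± 0.38 (adjusted p = 0.157) on its brightest probe set and by -0.24 and 0.01 on the others. Hif3a, an inhibitory HIF subunit, differed by 1.52 ± 0.52 (adjusted p = 0.409; a difference of 1.01 without wild type array 2), while its other 5 probe sets lay between -0.14 and 0.13. These 2 genes therefore rest on 1 probe set each. The remaining ones with an unadjusted p under 0.05 that the rule took were Pim1 (0.62), a kinase, and Hif1an (0.40), the asparaginyl hydroxylase FIH, above 0, and Siah2 (-0.59), a ligase that degrades prolyl hydroxylases, Higd1a (-0.59, and -1.24 and -1.07 on its other probe sets), a mitochondrial protein, Bpgm (-0.49), which makes 2,3-bisphosphoglycerate, and Pygl (-0.50), glycogen phosphorylase, below 0. By list, the median was -0.073 for the 23 other genes of glycolysis and gluconeogenesis, 0.15 for the 10 of pyruvate entry to mitochondria, 0.037 for the 9 of glycogen, 0.017 for the 16 of the HIF pathway and -0.109 for the 46 HIF targets.

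**Figure D5:**
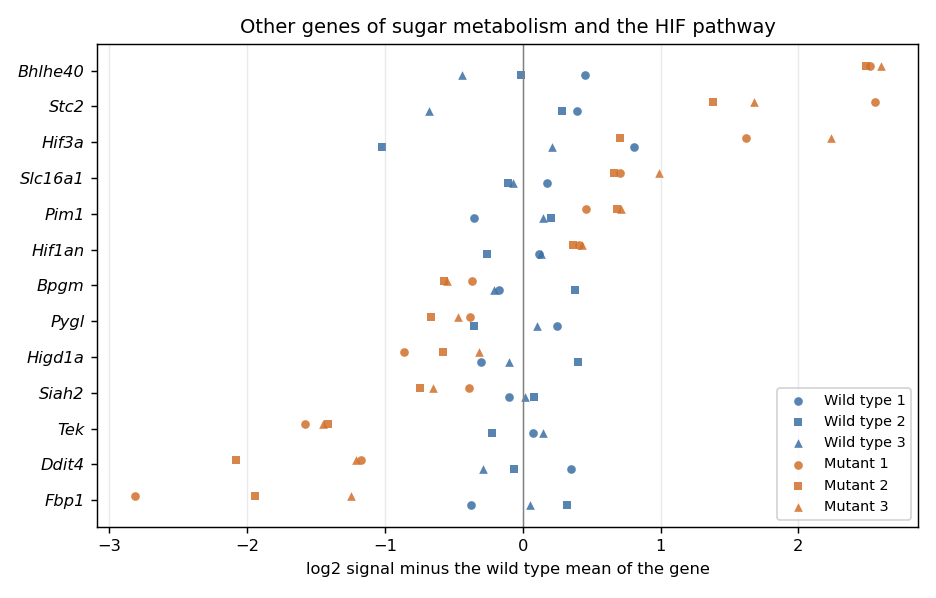
Log2 signal of the 13 named genes of the wider lists on each array, as the distance from the wild type mean of the gene. Mutant points of Bhlhe40 lie near 2.54 and those of Tek near -1.48, while Hif3a and the 4 genes Bpgm, Pygl, Higd1a and Siah2 show smaller gaps or overlap.

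Markers of cell types moved with the groups beside all these results. For comparison, 40.4% of all genes were above 0 and 0.11% passed the threshold. All 9 measured stem cell markers were below 0, with a median of -0.921 and 2 of 9 past the threshold, and their mean log2 signal was 9.82 to 9.99 on wild type and 8.76 to 8.92 on mutant arrays. Granulocyte markers were below 0 in 8 of 10, with a median of -2.373 and 2 past the threshold, and averaged 10.55 to 11.09 against 8.61 to 9.38. Mast cell and basophil markers were above 0 in 7 of 7, with a median of 2.153 and none past the threshold, and averaged 7.98 to 8.21 against 9.74 to 10.09. Macrophage and dendritic markers were above 0 in 7 of 8, with a median of 1.446 and none past the threshold, and averaged 6.93 to 6.96 against 7.78 to 8.50. The groups did not overlap in any of these 4 mean levels. Megakaryocyte markers were below 0 in 5 of 6, with a median of -0.57 (8.40 to 8.56 against 7.64 to 7.96), while erythroid (8.16 to 8.93 against 8.49 to 9.17) and lymphoid means (6.59 to 8.03 against 6.54 to 7.29) overlapped. Of 6 measured surface genes used to gate or subdivide such cells, Kit (-0.11), Flt3 (-0.19), Cd34 (-0.19) and Slamf1 (0.25) overlapped between groups. Procr, a stem cell receptor, was lower on every mutant array (-0.86, adjusted p = 0.157), and Cd48, which marks progenitors, was higher on every one (0.68, adjusted p = 0.218). The part of cell composition in the glycolytic and HIF values was not tested.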

How the data were processed

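RNA was extracted with a PicoPure kit and amplified and labelled for hybridisation, per the labels' protocols. The deposited value of each probe set on each array is an intensity, and the submitters' processing notes name RMA (background correction, normalization and summary of probes) without a version. The values are linear, so log2 was taken. Of 45101 probe sets, 34945 named a single gene in the platform annotation. Each gene took its probe set with the highest mean over 6 arrays, without array controls, which gave 18193 genes. As the design left controls out, Gapdh comes from an alternative that kept them.

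The test was a linear model per gene in limma 3.58.1 under R 4.3.3, fitted without covariates to 3 arrays per group and moderated by eBayes. Two-sided p-values were Benjamini-Hochberg adjusted over all genes; a gene is called at an adjusted p under 0.05. Errors are SE unless marked SD. The number of arrays limits the precision. The procedure was tested on simulated data with 3 arrays per group. It called 21 of 75 genes changed 2-fold (28%) and 63 of 75 changed 4-fold (84%). A gene that was not called is thus not shown to be unchanged.

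The members and lists were chosen with earlier results of these data known. Array values are given for members with an unadjusted p under 0.05 or groups that do not overlap, and for Hif1a, Ldha, Slc2a1 and Gapdh; other members' array values, and second probe sets, were chosen after their values were seen. From each wider list up to 3 genes per direction with the smallest unadjusted p under 0.05 are named, with any called gene. Egln2, outside this rule, was named after its values were seen. Alternatives changed the normalization, the probe set rule, the filter on dim genes, the variance model, the block, the arrays used and the threshold. Motifs were searched as exact letters.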

Additional observations from a re-analysis of the deposited data

How the results depend on the processing

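No gene of the set was called under any of the 20 alternatives, and its median log2 fold change stayed between 0.086 and 0.165. The median over all genes moved as well. In the main fit the set was at 0.126 and all genes at -0.071. Adjusting for Y-linked signal gave 0.087 for the set and 0.037 for all genes. Leaving out the arrays that carry this signal gave 0.092 and 0.044. The set thus lay closer to all genes in these fits. It lay farther away in some others, such as without wild type array 1 (0.115 and -0.115). Of the 28 genes, 20 kept their sign in every alternative. The number of genes called in all, 20, was 10 with the replicate block, 12 with every probe set as its own feature, 40 with trend and robust fitting, 8 with array weights, and 49 at an adjusted p under 0.10. It was 0 in limma with Y-linked signal as a covariate (1149 at an unadjusted p under 0.05) and 0 without the arrays with Y-linked signal (1729), and 5 (without wild type array 3) to 31 (without wild type array 1) when each array was left out, with 9 without mutant array 3 and 10 without mutant array 1. The count of non-overlapping genes of the set, 8, was 22 without the arrays with Y-linked signal. There, 1 wild type array remained and was assumed to vary like the mutant arrays. With each array left out the count was 9 to 14 (14 without wild type array 3, 13 without wild type array 1 or mutant array 1). Smaller groups overlap less often by construction. Shares over all genes at these settings are not given here, so these counts are not a result about the set.

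The labels do not say whether the replicate numbers pair the arrays. Deviations of same-numbered arrays correlated at 0.184, -0.0258 and 0.0631, and those of differently numbered arrays at -0.156 to 0.0941. These values do not settle the pairing. With the replicate block 7 of the 28 genes (25%) had an unadjusted p under 0.05, against 11% of all genes, and none of the set was called.

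Signs turned for uncalled genes only. With Y-linked signal as a covariate Hif1a was -0.168, Hk2 -0.319, Mxi1 0.362 and P4ha1 -0.191; without the arrays with Y-linked signal they were -0.182, -0.322, 0.381 and -0.18. Averaging a gene's probe sets turned Hif1a to -0.063 and Slc2a1 to 0.004. Pgam1 was -0.002 with quantile normalization again, -0.025 with cyclic loess and -0.017 with array weights. With each array left out, Hk2 ran from -0.046 to 0.637, Mxi1 from -0.462 to 0.043, P4ha1 from -0.135 to 0.291, Pfkfb3 from -0.045 to 0.401, Pfkm from -0.016 to 0.561 and Pgam1 from -0.028 to 0.062. The cause of these turns was not tested. The number of arrays, 3 per group, limits the precision.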
